A study of Mus musculus with 4 samples.

Results

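The type I interferon response genes are the genes that cells switch on when interferon alpha or beta binds its receptor. The 39 genes described here were chosen by symbol, and 37 of them had a row among the 32285 genes of the count matrix. Mx1 and Mx2 were not analysed here. The cells came from a competitive bone marrow transplantation in C57BL/6 mice, in which donor cells carrying CD45.2 compete with other marrow cells in 1 recipient. Donor haematopoietic stem and progenitor cells were sorted from bone marrow 20 weeks later, 20000 cells of each of 4 samples were loaded for 10x 3′ single-cell RNA sequencing, and the samples were not multiplexed. The donors of 2 samples were wild type and those of the other 2 were heterozygous for a Srcap mutation. Srcap encodes the ATPase of the remodeller that places the histone variant H2A.Z in chromatin, and the labels give neither the change the allele carries nor the age of the mice nor the recipient strain.

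The matrix joins the 4 samples, and a number at the end of each cell barcode tells its library. No label ties those numbers to genotypes, so the libraries are called 1 to 4, no comparison of mutant with wild type was made, and values are given per library, as the median over the 4, or, where said to be over all cells, pooled. Nothing here is a replicate of a known condition, and no p-value was computed. After filtering, 41122 of 44151 barcodes were kept, between 9026 and 12418 per library, with a median of 9824 to 10226.5 unique molecular identifiers (UMIs, 1 per captured transcript) per cell. Of the barcode sequences, 213 occurred in more than 1 library, which touched 387 kept cells. Levels are counts per 1000000 UMIs (CPM), summed over the cells named. A 3′ tag count does not depend on transcript length in a simple way, so levels are compared between cells for 1 gene, and the order of genes is a description.

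In the pathway, secreted interferons bind the receptor subunits IFNAR1 and IFNAR2, the kinases JAK1 and TYK2 phosphorylate transcription factors such as STAT2, and the complex ISGF3 forms with IRF9. ISGF3 binds a DNA element of paired GAAA cores, the interferon-stimulated response element, in front of its targets. The targets include proteins that stop viruses at membranes, degrade or hide viral RNA, sense foreign nucleic acid, and feed back on the pathway. In bone marrow, interferon is known to act on haematopoietic stem cells (HSCs), and stem cells are known to keep part of the response running without infection.

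The element itself was looked for in RefSeq promoters (GRCm38.p6), each holding 250 bases before and 50 after a transcription start. The search used GAAANNGAAA on both strands, which is TTTCNNTTTC on the strand shown when the match lies on the other one, and overlapping matches were counted. Of 29 members with a promoter in the table, 15 (51.7%) held at least 1 match and 7 held 2 or more, against 1079 of all 27025 symbols (3.99%) and 1131 of all 32851 promoters (3.44%). The windows printed run from 200 to 21 bases before the start and belong to 5 of the 6 genes later used to choose cells called interferon-high. They show where the element stood in 4 of them and that it was absent from Oasl2. Usp18, the other such gene, was not in the table. Capitals mark the matches. Ifit1 (chr19:34640689-34640868, plus strand) and Ifit3 (chr19:34583329-34583508, plus strand) each carried a pair, Isg15 (chr4:156200839-156201018, minus strand) carried 3 that overlap in 1 run, Rsad2 (chr12:26456473-26456652, minus strand) carried 1, and Oasl2 (chr5:114896734-114896913, plus strand) carried none in this window.

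Ifit1: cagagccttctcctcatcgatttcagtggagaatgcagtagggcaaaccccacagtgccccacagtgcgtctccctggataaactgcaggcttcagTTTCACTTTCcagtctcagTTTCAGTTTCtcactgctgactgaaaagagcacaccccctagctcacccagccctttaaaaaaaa
Ifit3: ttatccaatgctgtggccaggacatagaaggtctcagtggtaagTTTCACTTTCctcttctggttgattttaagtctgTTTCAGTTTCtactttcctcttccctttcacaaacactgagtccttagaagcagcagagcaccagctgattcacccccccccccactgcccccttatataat
Isg15: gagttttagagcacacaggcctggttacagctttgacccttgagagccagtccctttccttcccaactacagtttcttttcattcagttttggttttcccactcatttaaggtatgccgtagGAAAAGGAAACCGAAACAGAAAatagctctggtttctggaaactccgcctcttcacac
Rsad2: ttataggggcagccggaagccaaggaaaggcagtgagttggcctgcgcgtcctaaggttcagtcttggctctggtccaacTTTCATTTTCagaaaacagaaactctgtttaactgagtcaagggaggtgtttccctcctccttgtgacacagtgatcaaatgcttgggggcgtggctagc
Oasl2: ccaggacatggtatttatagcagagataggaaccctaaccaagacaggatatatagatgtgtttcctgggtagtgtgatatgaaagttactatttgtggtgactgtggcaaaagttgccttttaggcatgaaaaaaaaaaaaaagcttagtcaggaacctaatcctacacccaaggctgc

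Ifitm3 is shown by its site alone, chr7:141010716-141010742 on the minus strand, where a pair of matches lies just after the start with its cores on the strand shown.

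Ifitm3: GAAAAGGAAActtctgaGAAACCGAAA

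The first base of the match lay 104 and 85 bases before the start in Ifit1, 156 and 122 in Ifit3, 120 in Rsad2 and 78, 72 and 66 in Isg15. The near copy Ifit3b held its pair 188 and 154 bases before the start. Matches also stood in Oas1a, Oas3, Stat2, Bst2, Ifitm2, Ifih1, Ddx58, Trim30a and Eif2ak2. The 14 members without one were Ifit2, Isg20, Oasl1, Oasl2, Ifi35, Ifi44, Cmpk2, Xaf1, Ifitm1, Dtx3l, Herc6, Lgals3bp, Sp100 and Samhd1. Oas2, Usp18, Ifi27l2a, Dhx58, Rtp4, Parp9, Parp14, Zbp1, Mx1 and Mx2 were not in the promoter table.

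Several members lie side by side in the genome (GRCm38 annotation, the mm10 coordinates). On chromosome 19, Ifit2 spans 34550694 to 34576419, Ifit3 34583531 to 34588731, Ifit3b 34607970 to 34613401 and Ifit1 34640871 to 34650009, all on the plus strand. On chromosome 7, Ifitm2 spans 140954837 to 140955987 and Ifitm3 141009586 to 141010770, both on the minus strand. Ifitm1 lies between them on the plus strand, from 140967221 to 140969825. Rsad2 (26442746 to 26456452) and Cmpk2 (26469204 to 26479837) are neighbours on chromosome 12, Oasl2 (114896936 to 114912234) and Oasl1 (114923240 to 114937915) on chromosome 5. On chromosome 16, Parp9 (35938470 to 35972605) overlaps Dtx3l (35926511 to 35939151), which lies on the other strand, and whether the counting used strand is not given in the sources used here.

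All 37 members were detected in every library, with Ifitm2 and Ifitm3 at the top and Ifit3b at the bottom. The membrane proteins that block virus entry led. Ifitm2 was at 641, 591, 685 and 646 CPM in libraries 1 to 4, Ifitm3 at 597, 554, 664 and 748, and Ifitm1 at 460, 410, 525 and 574. Bst2, the tetherin that holds budding virus at the cell surface, followed at 141, 142, 160 and 159. These 4 genes were the only ones at 100 CPM or more, and the 33 others are called the sparse members. The Ifitm genes resemble each other, as do Ifit3 and Ifit3b, so reads may have been split between copies.

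Sp100, Samhd1 and Lgals3bp led the sparse members. Sp100, a nuclear body protein, was at 63.1, 74.3, 63.2 and 65.0 CPM. Samhd1, which breaks down deoxynucleotides, was at 59.5, 71.5, 58.5 and 61.0, and Lgals3bp, a secreted glycoprotein, at 56.6, 62.9, 55.8 and 62.4. The remaining genes of the 10 highest were Trim30a, at 56.1, 64.6, 51.0 and 56.7, Eif2ak2, at 50.8, 63.5, 48.5 and 50.6, and Dtx3l, at 40.8, 46.6, 36.3 and 39.7. Eif2ak2 encodes PKR, the kinase that halts translation when it meets double-stranded RNA, and DTX3L is a ubiquitin ligase that partners PARP9. For Sp100, Samhd1, Trim30a, Eif2ak2 and Dtx3l library 2 was the highest, as it was for 18 of all 37 members. Library 4 was the highest for 11 members and library 3 the lowest for 17.

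The genes usually read as signs of an active response were lower. Isg15, a ubiquitin-like protein that is joined to other proteins, was at 24.3, 23.0, 26.5 and 27.2 CPM. Usp18, which removes ISG15 and damps the receptor, was at 5.28, 5.80, 5.56 and 5.46. Oasl2, of the oligoadenylate synthetase family that answers double-stranded RNA, was at 20.5, 23.7, 19.4 and 23.6. None of these 3 varied much between libraries. Rsad2 (viperin, which makes a chain-terminating nucleotide) was at 10.7, 11.4, 9.90 and 11.2. Ifit1, which binds viral RNA caps, was at 7.44, 6.85, 7.87 and 9.95. Ifit3, its partner, was at 1.21, 1.05, 1.29 and 1.03, and Ifit3b was the lowest member at 0.287, 0.225, 0.382 and 0.297. Only Ifit3b (1.70-fold from lowest to highest library) and Herc6 (1.56-fold), the ligase that attaches ISG15 in the mouse, spread by more than 1.5-fold.

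The rest lay between these. The RNA sensors Ddx58 (RIG-I), Ifih1 (MDA5) and Dhx58 (LGP2) stood at 30.3, 23.0 and 8.69 CPM over all cells, and the Z-nucleic acid sensor Zbp1 at 10.9. The oligoadenylate synthetases Oas3 and Oas1a stood at 9.09 and 5.61, Oasl1 stood at 3.83 and Oas2 ranged from 1.63 to 2.00. Stat2, the member that carries the signal itself, stood at 14.2, and Parp14 and Parp9, which modify proteins with ADP-ribose, at 38.7 and 29.6. The exonuclease Isg20 was at 29.9, the mitochondrial nucleotide kinase Cmpk2 at 7.69 and the RNA-binding Ifit2 at 11.6. Ifi35 ranged from 29.8 to 35.2 over libraries, and Ifi27l2a, Rtp4, Xaf1, Herc6 and Ifi44 were at 31.1, 29.3, 22.2, 21.0 and 17.7.

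**Figure D1:**
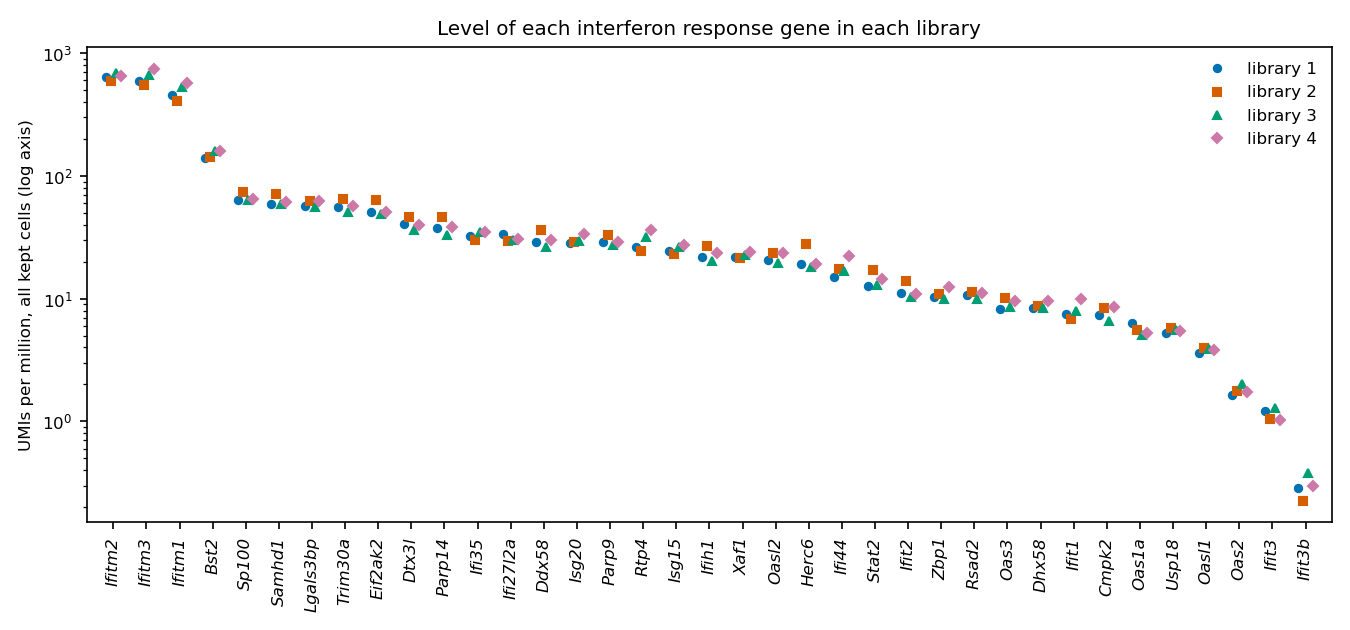
Level of each of the 37 members in each of the 4 libraries, in CPM over the kept cells on a log axis, with 1 point per library. The 4 genes at the top stand at 100 CPM or more, Ifit3b is the lowest, and the points of most genes lie close together.

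Transcripts of the receptor and its relays were counted in these cells, and almost none of the ligands. Of 34 pathway genes listed apart from the members, all had a row. Ifna1, Ifna4, Ifnb1, Ifne, Ifnl2 and Ifnl3 had 0 UMIs in 491638132, and 3 UMIs, the most that a count of 0 allows, would be 0.0061 CPM. Ifna2 had 1 UMI, Ifnk 6 and Ifng 9. The receptor subunit Ifnar2 stood at a median of 94.3 CPM over libraries and Ifnar1 at 28.9, the kinases Jak1 and Tyk2 at 166 and 14.3, and Irf9 at 36.2. Irf7, the factor that amplifies interferon transcription, was at 9.49, and the inhibitor Socs1 at 7.94.

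Cells were then given a type by markers that leave out interferon-responsive genes: a cell entered the gate of which it showed the largest share of markers, at least 3 of them and at least 50% of those detected, and the names mean only that its markers were seen. The HSC-like gate (Hlf, Mecom, Procr, Mllt3, Hoxb5, Fgd5, Ctnnal1) held 5722 cells (13.9%), the Flt3 progenitor-like gate 8275 (20.1%), the granulocyte progenitor-like gate 4796 and the megakaryocyte progenitor-like gate 2702. A further 4361 cells with both Cd34 and Cd48 and no other gate are called uncommitted. In the HSC-like gate Procr was at 140 CPM against 22.8 in the other cells, and Mecom at 180 against 51.1, though these were gate markers. Mature cells were also found among the sorted progenitors, with 473 plasma cell-like, 335 dendritic-like (conventional; its marker Clec10a was lower inside, 1.86 CPM, than outside, 6.16), 174 mature B-like and 159 T or NK-like cells. A total of 10255 cells (24.9%) met no gate and 1590 tied between gates.

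Cell cycle differed strongly between gates, so levels were read at matched state. A cell thinned to 5000 UMIs was called resting with 10 or fewer UMIs of 57 S and G2/M genes, and cycling with 20 or more. Resting cells made up 67.5% of the HSC-like gate, 33.5% of the Flt3 gate, 30.8% of the uncommitted, 13.8% of the granulocyte and 13.1% of the megakaryocyte gate, and 92.2% of the plasma cell-like gate. Resting cells also held fewer UMIs: their median was 7501 to 8976 in these progenitor gates, against 13197 to 17326 in cycling cells. The part that depth plays in the comparisons of state was not tested. Of the 41122 kept cells, 39118 had 5000 UMIs or more and could be given a state.

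Summed over the 33 sparse members, resting HSC-like cells stood at 1190, 1299, 1140 and 1190 CPM in libraries 1 to 4. Resting Flt3 cells stood at 1063, 1222, 1070 and 1142, uncommitted cells at 922, 1097, 923 and 1107, granulocyte progenitor-like cells at 919, 960, 883 and 1042, and megakaryocyte progenitor-like cells at 865, 1147, 861 and 892. In each library the HSC-like cells were the highest of these 5 gates. Their range lay clear of the uncommitted and granulocyte gates and overlapped the Flt3 and megakaryocyte gates. Dendritic-like cells were at 1309, 1490, 1314 and 1158, above HSC-like cells in 3 of the 4 libraries, and plasma cell-like cells were the lowest at 491, 463, 499 and 553. Immunoglobulin genes held 54.2, 55.6, 57.2 and 58.0% of the UMIs of these plasma cell-like cells. Per 1000000 UMIs of the other genes their sum was 1072, 1043, 1166 and 1318, against 1192, 1299, 1140 and 1190 in HSC-like cells, so the low place of plasma cell-like cells ended on that scale. The 4 abundant members had another order. Their sum was 3270, 3042, 4008 and 3845 CPM in resting HSC-like cells and 2010, 1890, 2090 and 2146 in resting Flt3 cells, with a median of 577 in dendritic-like and 244 in plasma cell-like cells.

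**Figure D2:**
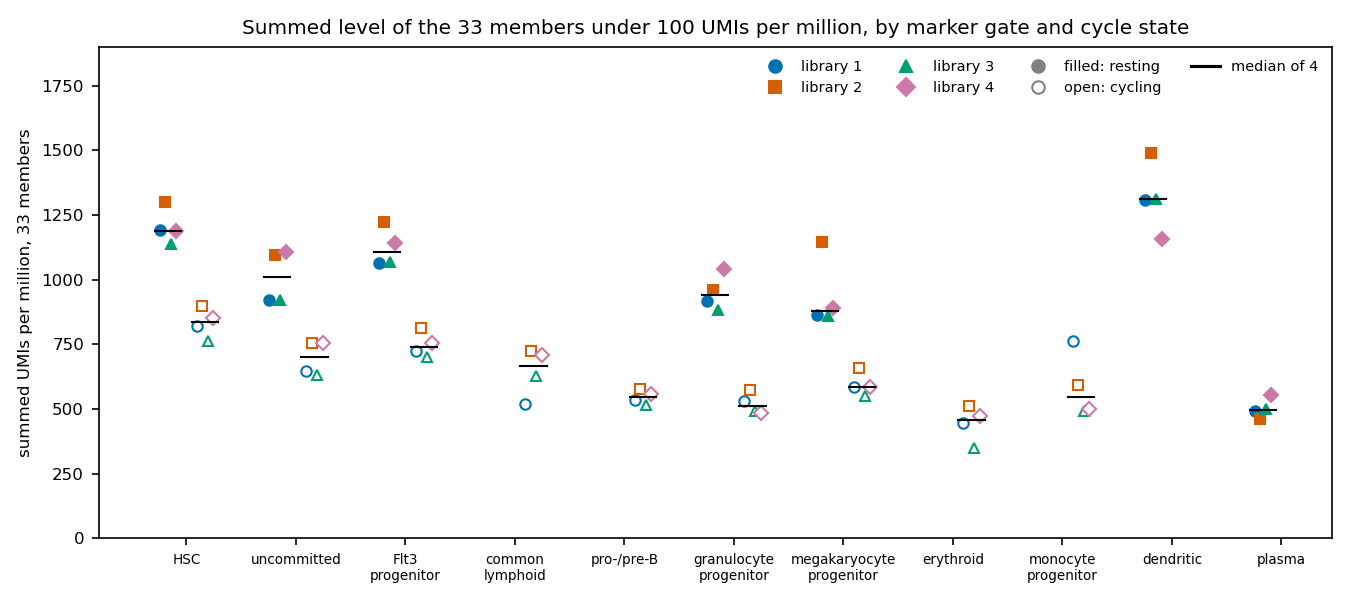
Summed level of the 33 sparse members in CPM (linear axis) by marker gate, with filled points for resting and open points for cycling cells, 1 point per library, and a line at the median of 4. Resting HSC-like cells sit near 1190 CPM and plasma cell-like cells near 495, and in each progenitor gate drawn in both states the resting median lies above the cycling one, an order that is reversed when UMIs are taken per cell.

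Gene by gene, the members did not share 1 pattern over the 7 gates with enough resting cells. The median was highest in HSC-like cells for 17 members, in dendritic-like cells for 8, in Flt3 cells for 5, in granulocyte progenitor-like, uncommitted and plasma cell-like cells for 2 each, and in megakaryocyte progenitor-like cells for 1. Only 3 of the 17 had library values in HSC-like cells that lay clear of the gate with the next highest median: Ifitm1, Ifitm3 and Oasl2. Such counts were not taken over all genes, so they do not set the members apart. Ifitm1 in resting cells was at 1211, 1056, 1608 and 1543 CPM in the HSC-like gate, at 764, 614, 955 and 1051 in the granulocyte gate, at 618, 575, 615 and 621 in the Flt3 gate and at 460, 451, 449 and 573 in the megakaryocyte gate, and its median was 36.2 in plasma cell-like cells. Ifitm3 had a median of 1340 in HSC-like, 1011 in megakaryocyte progenitor-like and 77.2 in plasma cell-like cells. Oasl2 was at 44.7, 47.0, 43.5 and 45.4 in HSC-like and 34.6, 43.0, 35.6 and 42.9 in Flt3 cells, so its margin was narrow, and its median in plasma cell-like cells was 1.14.

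Dendritic-like cells led for a different set. Stat2, Ifi35, Trim30a, Sp100 and Samhd1 were highest there, without overlap with the gate of the next highest median. Samhd1 had a resting median of 302 CPM (271 to 464) against 105 in HSC-like and 45.5 in plasma cell-like cells. Stat2 was at 59.6 against 23.9 in HSC-like cells, Trim30a at 147 against 83.5, Ifi35 at 99.4 against 38.6 in the megakaryocyte gate, and Sp100 at 133 against 94.0 in the Flt3 gate. Usp18 and Dhx58 also had their highest resting median in dendritic-like cells, with overlap. Usp18 was at 14.9 CPM there against 8.78 in Flt3 cells, and Dhx58 at 18.7 against 13.1 in HSC-like cells. Ifit1 was low in the same cells, at 2.36, 1.48, 2.14 and 0 CPM against 23.8, 19.5, 19.9 and 25.3 in HSC-like cells. In CPM over all UMIs, of which immunoglobulin held 54.2 to 58.0% in plasma cell-like cells, these cells were the lowest for 28 members. That count was not taken over all genes, so it does not set the members apart. Plasma cell-like cells led for Isg20, at 131, 136, 165 and 161 CPM against an HSC-like median of 54.1, and for Zbp1, at 54.3, 58.8, 63.6 and 74.0.

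Ifi27l2a, of a family of small interferon-induced membrane proteins, was the 1 member lowest in HSC-like cells. Its resting median was 6.49 CPM (5.14 to 8.47) there, 10.7 in megakaryocyte progenitor-like, 17.1 in granulocyte progenitor-like, 27.9 in uncommitted, 60.7 (53.1 to 65.9) in Flt3, 73.9 in plasma cell-like and 90.2 (83.6 to 152) in dendritic-like cells. Over all states it was at 105 in pro- or pre-B-like and 189 in mature B-like cells, whose median depth of 2236.5 UMIs was low. Among the 7 resting gates the dendritic-like and HSC-like values did not overlap. Over all states the erythroid-like gate was lower still, at 3.02. Bst2, by contrast, differed little between resting HSC-like cells, at 167, 166, 185 and 174, and resting Flt3 cells, at 159, 156, 195 and 200. Over all states it was highest in monocyte-like cells, with a median of 277 CPM against 174 in Flt3 cells and no overlap between the 2.

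Pairs of gates were then compared library by library. A gene entered with an average of at least 5 CPM over both sides, its log2 ratio was taken after adding 1 CPM, and it was counted as higher or lower when all 4 libraries showed a ratio of 1.5-fold or more to the same side. It is a threshold on size, with no test behind it. Of all 9983 genes compared between resting HSC-like and resting Flt3 cells, 7.04% were higher and 4.45% lower. Of 34 members past the filter, 4 were higher and 1 was lower, and the median log2 ratio of the members was 0.16 (0.09 to 0.25 over libraries) against 0.03 for all genes. With all cycle states together the count was 7 and the median 0.36. Here and below, counts under such alternative settings have no share of all genes beside them, so they do not set the members apart.

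Ifitm1 was higher in HSC-like than in Flt3 cells by 0.97, 0.88, 1.39 and 1.31 on the log2 scale in libraries 1 to 4. Ifih1, the MDA5 sensor of long double-stranded RNA, was at 43.9, 50.1, 39.8 and 41.3 CPM against 21.5, 23.0, 22.4 and 18.8, log2 ratios of 1.00, 1.09, 0.80 and 1.1. Ifitm3 and Zbp1 (median 0.91) also counted. Rsad2 had ratios of 1.24, 0.91, 0.43 and 1.33 and missed the rule through library 3. At the other end, Ifi27l2a was lower by log2 ratios of -2.82, -2.79, -3.14 and -3.33. Oasl1, an inhibitor of Irf7 translation, had ratios of -0.84, -0.28, -0.91 and -0.68, and Usp18 had 0.49, -0.53, -0.46 and -0.39, and neither counted.

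Against resting uncommitted cells, 6 of 34 members were higher in HSC-like cells and 1 was lower, where 4.44% and 2.17% of 9932 genes were, and the median of the members was 0.28 (0.19 to 0.33) against -0.01 for all genes. The count was 3 with a pseudocount of 5 CPM, and 3 when resting meant 5 cycle UMIs or fewer. Ifit2, which binds RNA and restrains translation, was higher by 1.12, 1.32, 1.24 and 0.72, and Rsad2 by 1.25, 0.93, 0.88 and 1.00. Ifih1 (median 0.90), Ifitm3 (0.81), Ifitm1 (0.80) and Oas3 (0.70) made up the rest. Ifi44 had ratios of 1.01, 1.22, 1.27 and 0.39, with library 4 short of the rule. Ifi27l2a was lower, with log2 ratios of -2.03, -1.81, -1.84 and -2.13. Oasl1, with -0.46, -0.47, -0.23 and 0.31, and Ifitm2, with -0.22, -0.10, -0.24 and -0.04, lay close to 0.

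HSC-like cells also stood above megakaryocyte progenitor-like cells at rest, with 4 of 34 members higher and 0 lower, beside 2.47% and 1.42% of 9967 genes. The count was 2 when resting meant 5 cycle UMIs or fewer and 16 with all cycle states together, neither with a share of all genes beside it. The median of the members was 0.41 (0.07 to 0.46) against 0.00. Ifitm1 differed by 1.39, 1.23, 1.84 and 1.43, Ifi44 by 0.83, 1.33, 1.28 and 0.96 and Rtp4 by 1.48, 1.03, 0.91 and 0.75, and Oasl2 had a median of 0.73. IFI44 is an interferon-induced cytoplasmic protein, and RTP4 was first known as a chaperone that brings receptors to the surface. Ifi27l2a (-0.54, -1.08, -0.65 and -0.10), Ifi35 (-0.46, -0.32, 0.04 and 0.09) and Ifitm2 (-0.05, -0.16, -0.12 and -0.05) were the lowest and did not count. The 352 resting cells of the megakaryocyte gate left few per library, and in library 2 its resting megakaryocyte progenitor-like cells stood at 1147 CPM.

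Flt3 cells and granulocyte progenitor-like cells at rest differed in 2 of 34 members, both higher in Flt3 cells, with 0 lower, beside 1.76% and 1.17% of 9722 genes. The 2 were Ifi27l2a (1.38, 2.31, 1.44 and 1.94) and Oasl1 (0.68, 1.29, 1.00 and 0.73), and Oasl1 was under 5 CPM in the granulocyte gate. The count was 1 under 6 of the alternatives tried, a change of gates, resting limit, pseudocount or filters or the loss of the interferon-high cells. It was 10 with all cycle states together, with no share of all genes beside it. Ifi44 had 0.48, 1.40, 0.70 and 0.53. The lowest ratios were those of Ifitm1 (-0.31, -0.09, -0.63 and -0.76), Ifitm2 (-0.40, -0.34, -0.49 and -0.39) and Oas1a (-0.59, 0.13, 0.08 and -0.90), none of which counted. The median of the members, 0.15 (0.09 to 0.29) against -0.01, was small and was 0.08 without the interferon-high cells described further on.

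Between types, the listed pathway genes were read by the same rule. Of 22 pathway genes past the filter between HSC-like and Flt3 cells, 0 were higher and 3 lower, beside 7.04% and 4.45% of all genes. Of the 3, Ifnar2 (median log2 ratio -0.74) and Tmem173 (STING, -0.81) were at 5 CPM or more on both sides. The RNA receptor Tlr7 passed only through Flt3 cells, with medians of 0.33 CPM in HSC-like and 9.45 in Flt3 cells. Against uncommitted cells 0 of 21 counted in either direction, beside 4.44% and 2.17% of all genes. Against megakaryocyte progenitor-like cells Irf1 (0.89) and Tmem173 (1.28) were higher, as were 2.47% of all genes. Between Flt3 and granulocyte progenitor-like cells 1 of 22 was higher, beside 1.76% of all genes. It was Tlr7, at 1.14 CPM in the granulocyte gate. HSC-like cells had less Ifnar2 than Flt3 cells, with medians of 82.9 and 133 CPM at rest, beside more Ifitm1, Ifitm3, Ifih1 and Zbp1.

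**Figure D3:**
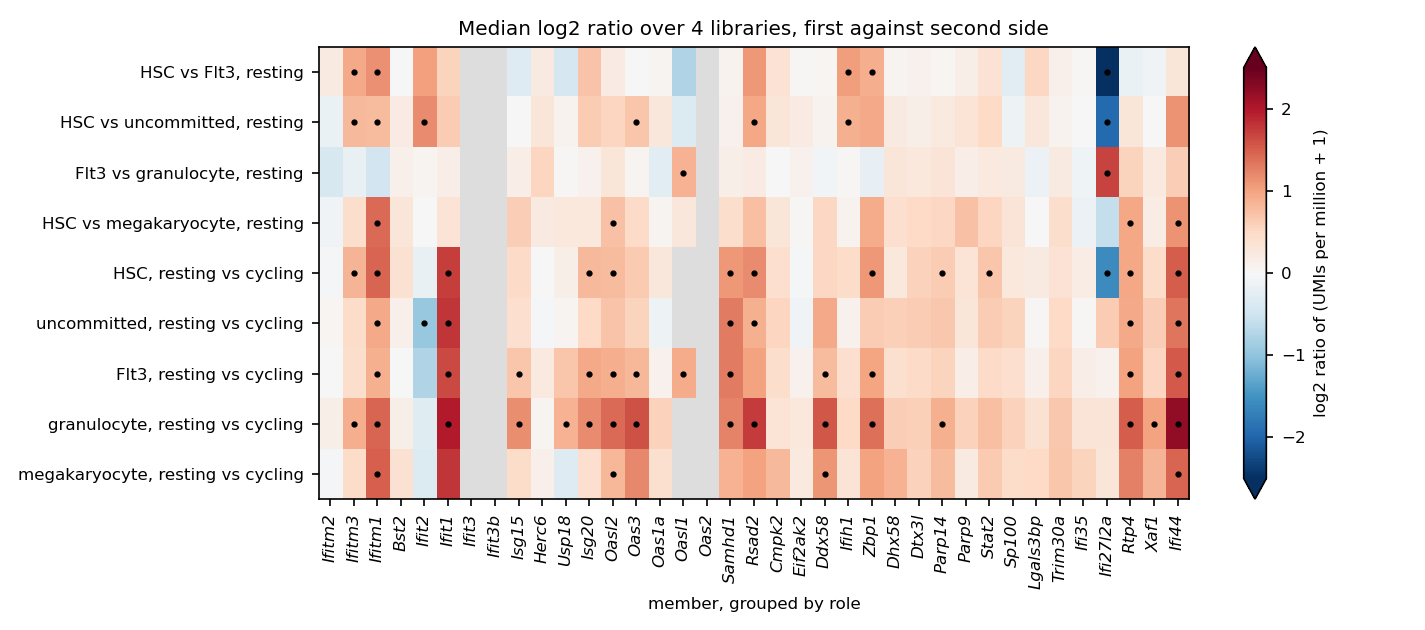
Median log2 ratio over the 4 libraries for each of the 37 members (columns) in 9 comparisons (rows), as a colour scale, with a dot where 4 of 4 libraries reached 1.5-fold to the same side and grey where the gene missed the filter of 5 CPM. The 5 rows of resting against cycling cells hold most of the dots, and Ifi27l2a stands out as lower in HSC-like than in Flt3 and uncommitted cells.

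As a share of a cell's transcripts the members were higher in resting cells, while their sum in UMIs per cell was lower, as given further on. In all 5 progenitor gates the median log2 ratio of the members, resting against cycling, was 0.48 or more. In HSC-like cells it was 0.49 (0.42 to 0.52 over libraries, all genes -0.01), in uncommitted cells 0.48 (0.45 to 0.56, all genes 0.05), in Flt3 cells 0.51 (0.50 to 0.59, all genes 0.05), in granulocyte progenitor-like cells 0.70 (0.68 to 1.13, all genes 0.08) and in megakaryocyte progenitor-like cells 0.57 (0.50 to 0.84, all genes 0.01). Between 24 and 29 members had a ratio above 0 in 4 of 4 libraries in each gate, a count that was not taken over all genes.

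In HSC-like cells 12 of 33 members past the filter were higher at rest and 1 lower, where 5.6% and 9.21% of 10129 genes were. Ifit1 was at 23.8, 19.5, 19.9 and 25.3 CPM in resting and 5.70, 5.85, 9.06 and 5.44 in cycling HSC-like cells, log2 ratios of 1.89, 1.58, 1.06 and 2.03. Ifi44 was at 44.2, 54.6, 49.3 and 54.5 against 15.9, 17.4, 10.8 and 21.8, and Ifitm1 had ratios of 1.45, 1.35, 1.60 and 1.47. For these 3 genes no cycling value reached a resting one. Rsad2 (median 1.18), Zbp1 (1.09), Samhd1 (1.08), Rtp4 (0.96), Ifitm3 (0.85), Isg20 (0.82), Oasl2 (0.78), Stat2 (0.69) and Parp14 (0.63) completed the set. With 1 more marker required per gate the count was 7. Ifi27l2a went the other way (-1.43, -1.04, -1.94 and -1.74). Eif2ak2 (-0.02, -0.08, -0.00 and -0.07) and Ifit2 (0.00, -0.53, 0.17 and -0.39) did not count.

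In Flt3 cells 12 of 34 members were higher at rest and 0 lower, beside 4.69% and 7.9% of 9754 genes. Ifit1 differed by 1.71, 1.35, 1.65 and 1.64, Ifi44 by 1.49, 1.78, 1.57 and 1.41 and Samhd1, which limits the nucleotides that replication needs, by 1.15, 1.22, 1.40 and 1.37. The others were Rtp4, Zbp1, Isg20, Oasl1, Oasl2, Ifitm1, Oas3, Ddx58 and Isg15, with medians from 1.00 down to 0.68. Ifit1 and Oasl1 were under 5 CPM in cycling Flt3 cells and passed the filter only through resting ones. Ifit2 (-0.96, -0.71, -0.78 and -0.22), Ifitm2 (median -0.02) and Bst2 (0.01) were at the bottom and did not count. In uncommitted cells 6 of 33 were higher and 1 lower, beside 3.5% and 7.13% of 9721 genes. Ifit1 (1.78, 1.78, 1.85 and 1.63), Ifi44 (1.44, 1.19, 1.24 and 1.65) and Samhd1 (1.32, 1.42, 1.25 and 1.28) led again, followed by Ifitm1, Rtp4 and Rsad2 (0.94, 0.94 and 0.88). Ifit1 was again under 5 CPM in the cycling cells, and with a filter of 20 CPM the count was 3. The member lower at rest was Ifit2 (-0.97, -1.53, -0.91 and -0.80), and Eif2ak2 and Oas1a had medians of -0.09 and -0.13.

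Granulocyte progenitor-like cells had the largest count, with 16 of 33 members higher at rest and 0 lower, beside 8.12% and 7.93% of 9609 genes. Of the 16, 6 were under 5 CPM in cycling cells and passed the filter only through resting cells (Ifit1, Oas3, Rsad2, Usp18, Ifi44 and Zbp1), and 10 of the 26 members at 5 CPM or more on both sides were higher. Ifi44 differed by 2.22, 1.51, 2.27 and 2.23, Ifit1 by 1.91, 1.88, 2.05 and 2.78 and Rsad2 by 1.49, 0.70, 2.04 and 2.01. Oas3 (1.60), Ddx58 (1.54), Rtp4 (1.52), Ifitm1 (1.46), Oasl2 (1.42), Zbp1 (1.37), Samhd1 (1.24), Isg20 (1.18), Isg15 (1.16), Xaf1 (1.01), Ifitm3 (0.91), Parp14 (0.89) and Usp18 (0.88) followed. Bst2 (0.14), Herc6 (0.06) and Ifit2 (0.09, -0.97, -0.70 and 0.13) were the lowest. Without the 8% deepest cells of each library the count was 9 and the median 0.59, and with a filter of 20 CPM the count was 10. In megakaryocyte progenitor-like cells 4 of 33 were higher and 0 lower, beside 2.94% and 5.88% of 9746 genes: Ifitm1 (1.28, 1.59, 1.41 and 1.57), Ifi44 (1.57, 1.34, 1.61 and 1.06), Ddx58 and Oasl2 (0.83). Ifit1 had 0.56, 2.62, 2.01 and 1.58 and missed the rule through library 1. Without library 1 the count was 9, and without the interferon-high cells described further on it was 7. Ifit2 (-0.51, -0.52, -0.12 and -0.19), Usp18 (-0.33) and Ifitm2 (-0.05) were at the bottom.

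A CPM is a share of a cell's transcripts, and cycling cells held more of them. The mean number of UMIs of the 33 sparse members per cell was 10.1 in resting and 13.6 in cycling HSC-like cells, while the mean total was 8404 and 16102. In Flt3 cells it was 9.06 and 12.1, in granulocyte progenitor-like cells 8.15 and 9.95 and in megakaryocyte progenitor-like cells 9.73 and 10.3. In each of these gates the cycling cells held more member UMIs, within a larger total. Counted per cell, the median log2 ratio of the members was -0.48 in HSC-like, -0.27 in uncommitted, -0.47 in Flt3, -0.35 in granulocyte progenitor-like and -0.11 in megakaryocyte progenitor-like cells, and at most 1 member a gate reached 1.5-fold at rest. A small set kept the higher value at rest. In HSC-like cells 23 of 33 members had more UMIs per cycling cell in 4 of 4 libraries and 6 had more per resting cell: Ifit1, Rsad2, Ifi44, Ifitm1, Zbp1 and Samhd1. Ifit1 stood at 0.186, 0.153, 0.175 and 0.222 UMIs per resting and 0.0873, 0.0927, 0.151 and 0.0917 per cycling cell in libraries 1 to 4. Eif2ak2 stood at 0.475, 0.567, 0.523 and 0.524 per resting and 0.943, 1.21, 0.992 and 1.06 per cycling cell. In uncommitted cells 6 members had more per resting and 16 more per cycling cell, in Flt3 cells 3 and 24, in granulocyte progenitor-like cells 8 and 15 and in megakaryocyte progenitor-like cells 3 and 10. Ifi44 kept the higher value per resting cell in all 5 gates, Ifit1, Ifitm1 and Samhd1 in 4 of the 5. UMIs per cell were not counted over all genes, so these counts do not set the members apart from other genes. Genes known to be induced by tissue handling, such as immediate early genes, were read beside the members. Of the 10 past the filter (9 in the megakaryocyte gate), 3 to 5 were higher at rest and 0 or 1 lower in the 5 gates. Of all genes, 2.94 to 8.12% were higher at rest and 5.88 to 9.21% lower. Between types 0 or 1 handling gene was higher and 0 lower, where 1.76 to 7.04% and 1.17 to 4.45% of all genes were. The summed level of the handling genes went the other way, at 2044 to 2205 CPM in resting and 2447 to 2823 in cycling HSC-like cells, and it was lower at rest in all 5 gates. Their part in the state comparisons was not tested.

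Among pathway genes, the feedback inhibitors Socs1 and Socs3 were the only ones higher at rest in HSC-like cells, 2 of 21. In Flt3 cells 3 of 22 were higher, with Irf7 (0.96) beside Socs1 and Socs3, and in granulocyte progenitor-like cells 5 of 21, with Irf9 (1.16), Irf1 (0.82) and Ifnar1 (0.72) beside the same inhibitors. In uncommitted cells 4 of 21 were higher (Irf5, Socs1, Irf7 and Tmem173, with medians of 1.07, 0.91, 0.87 and 0.68) and in megakaryocyte progenitor-like cells 1 of 19, Irf9 (1.03). Socs3 was under 5 CPM in the cycling cells of the HSC-like, Flt3 and granulocyte gates, and Socs1 in those of the granulocyte gate. Cgas, the sensor of cytosolic DNA, was the 1 gene lower at rest in each of the 5 gates, with median log2 ratios from -1.93 to -1.27. Of all genes, 5.6% (HSC-like), 4.69% (Flt3), 8.12% (granulocyte), 3.5% (uncommitted) and 2.94% (megakaryocyte) were higher at rest and 5.88 to 9.21% lower. The pathway genes were compared in CPM alone, not in UMIs per cell.

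Whether a few cells or many carried these levels was read in resting HSC-like and Flt3 cells thinned to 5000 UMIs. The 5% of cells with most UMIs of the 33 sparse members held 17.6, 15.5, 17.6 and 14.9% of those UMIs in libraries 1 to 4, where independent (Poisson) counts at the same mean would give 9.71%. The variance of the sum was 4.40, 3.20, 4.31 and 2.80 times its mean, and 1 would be the Poisson value. Few cells were empty, with 0 UMIs of all 33 genes in 1.32% of resting HSC-like and 2.10% of resting Flt3 cells, where Poisson counts would give 0.26% and 0.36%. The sum of the 33 genes was uneven between cells, and nearly every cell contributed to it. For the 6 genes later used to choose interferon-high cells, 58.1% of resting HSC-like and 66.7% of resting Flt3 cells had 0 UMIs. The top 5% of cells held 32.8% and 39.7% of the UMIs of those 6, where Poisson counts would give 20.2% and 20.6%.

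Genes differed in how uneven they were. The ratio of variance to mean of single genes was highest for Ifitm1 (median 3.60), Ifitm3 (2.30) and Ifi27l2a (2.04), all 3 of which differed between these gates. Next came Ifit3 (1.81, range 0.99 to 3.36), Isg15 (1.81), Ifit1 (1.63), Rsad2 (1.58), Rtp4 (1.55), Ifi44 (1.49) and Oasl2 (1.32). Lgals3bp (1.05), Ifi35 (1.03) and Oas1a (1.03) were near the Poisson value. In all, 13 of 37 members were at 1.2 or more, 8 at 1.5 or more and 24 under 1.2.

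Cells were next chosen by 6 selecting genes, Ifit1, Ifit3, Isg15, Rsad2, Oasl2 and Usp18. A cell with UMIs of at least 3 of them is called interferon-high here, a name that states the rule and not the strength of a response. There were 1607 such cells of 41122 (3.91%): 422 in library 1 (3.40%, exact 95% binomial interval 3.09 to 3.73), 379 in library 2 (3.78%), 368 in library 3 (3.81%) and 438 in library 4 (4.85%, 4.42 to 5.32). Intervals cover counting error only. The gates made up different parts of the libraries, with 1255 HSC-like cells in library 1 and 1871 in library 4, and within the HSC-like gate the shares were 5.58, 5.67, 6.33 and 7.11% in libraries 1 to 4, with overlapping intervals. In the Flt3 gate they were 3.94, 4.58, 5.10 and 6.55%, and the intervals of libraries 1 (3.22 to 4.76) and 4 (5.33 to 7.94) did not overlap. Over all cells of a gate the share was 6.26% of HSC-like, 4.85% of Flt3, 3.48% of megakaryocyte progenitor-like, 3.39% of uncommitted and 2.67% of granulocyte progenitor-like cells. The HSC-like share was above the Flt3 share in each library, and the megakaryocyte share was above the uncommitted one in 2 of 4. It was 0 of 473 plasma cell-like cells at a median depth of 17248 UMIs, 0 of 248 monocyte-like cells and 0 of 174 mature B-like cells, the last at low depth. The exact 95% intervals of these 3 gates reach up to 0.777, 1.48 and 2.10%. Of the UMIs of resting plasma cell-like cells, 54.2 to 58.0% were immunoglobulin, so their depth for other genes was lower. The part that free RNA plays in these shares was not tested.

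At equal depth the share was higher in resting cells in 4 of the 5 progenitor gates. Thinned to 5000 UMIs, 2.86% of resting HSC-like cells (107 of 3743) and 0.79% of cycling ones (11 of 1394) were interferon-high, and 3.18% (86 of 2705) and 0.80% (34 of 4243) of Flt3 cells. In uncommitted cells the shares were 2.58% and 0.69%, in granulocyte progenitor-like cells 1.84% and 0.39% and in megakaryocyte progenitor-like cells 0.28% (1 of 352) and 0.36%. Without thinning, where cycling cells are deeper, the shares of HSC-like cells were 6.55% and 6.46%, of Flt3 cells 5.69% and 4.57% and of granulocyte progenitor-like cells 4.59% and 2.32%. At rest and equal depth the exact 95% intervals of HSC-like (2.35 to 3.44%) and Flt3 cells (2.55 to 3.91%) overlapped, and so did those of their cycling cells (0.39 to 1.41% and 0.56 to 1.12%).

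The other 31 members, which took no part in choosing the cells, were then compared between interferon-high and other cells of the same library, the others weighted to the same mix of gates and states. Of 9910 genes past the filter, 65 were higher (0.656%) and 6 lower. Of 29 of the other members past the filter, 20 were higher and 0 lower, and their median log2 ratio was 0.92 (0.81 to 1.01 over libraries) against 0.02 for all genes. Ifit3b and Oas2 missed the filter. Of the 28 at 5 CPM or more on both sides, 19 were higher. With 2 or more selecting genes in place of 3, the count was 11. Together with the 6 selecting genes, 26 of the 65 were members. The median depth was 10457 UMIs in interferon-high and 10047 in other cells.

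Oasl1, which was under 5 CPM in the other cells and passed the filter only through interferon-high ones, was at 23.6, 24.2, 24.7 and 18.8 CPM against 3.01, 3.46, 3.60 and 3.14, a median log2 ratio of 2.49. Rtp4 was at 102, 101, 140 and 122 against 26.6, 23.5, 33.6 and 35.5 (1.97), Ifi44 at 65.8, 70.9, 80.6 and 79.6 against 16.3, 17.2, 20.1 and 21.7 (1.95) and Cmpk2 at 28.2, 29.6, 22.9 and 26.8 against 6.94, 7.44, 6.63 and 8.09 (1.75). For each of these 4 genes the groups stood far apart in 4 of 4 libraries. The sensors followed with Zbp1 (1.67), Dhx58 (1.36), Ddx58 (1.09), Ifih1 (0.87) and Eif2ak2 (0.86), as did Oas3 (1.57), Oas1a (0.92), Isg20 (1.03), Herc6 (0.97), Parp14 (1.13), Parp9 (1.02), Xaf1 (1.41), Ifit2 (0.90), Stat2 (0.83), Trim30a (0.82) and Ifi27l2a (0.73). The 9 that did not count were Dtx3l (0.67), Ifi35 (0.62), Sp100 (0.55), Ifitm3 (0.50), Lgals3bp (0.48), Bst2 (0.47), Samhd1 (0.36), Ifitm1 (0.25) and Ifitm2 (0.01).

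Ifitm1 and Ifitm2 differed little between these groups of cells, and Ifitm3 more. Ifitm1 was at 611, 510, 806 and 774 CPM in interferon-high cells against 520, 437, 669 and 644, and Ifitm2 at 653, 628, 704 and 673 against 648, 590, 703 and 673. Ifitm3 was at 894, 849, 1143 and 1083 against 659, 572, 770 and 810, short of 1.5-fold in each library. The Ifitm1 ratio of 0.25 here compares with 1.14 between HSC-like and Flt3 cells and 1.46 between resting and cycling HSC-like cells. The selecting genes themselves had medians of 3.97 (Ifit1), 3.84 (Ifit3), 3.18 (Rsad2), 3.17 (Isg15), 3.06 (Usp18) and 2.42 (Oasl2), which the choice of cells fixed. Ifit1, for instance, was at 95.3, 82.5, 103 and 91.2 CPM against 5.06, 3.94, 5.74 and 5.96. Of the 39 higher genes that were no members, 30 were at 5 CPM or more on both sides. Cxcl10, a chemokine, was not, at 24.8 against 1.13 CPM. Irf7 differed by 2.04, Slfn5 by 1.79, the GTPase Iigp1 by 1.64, Irf9 by 0.84, Gbp7 by 0.81 and Ly6a, the stem cell antigen Sca-1, by 0.70. These 7 were named after their values were seen.

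**Figure D4:**
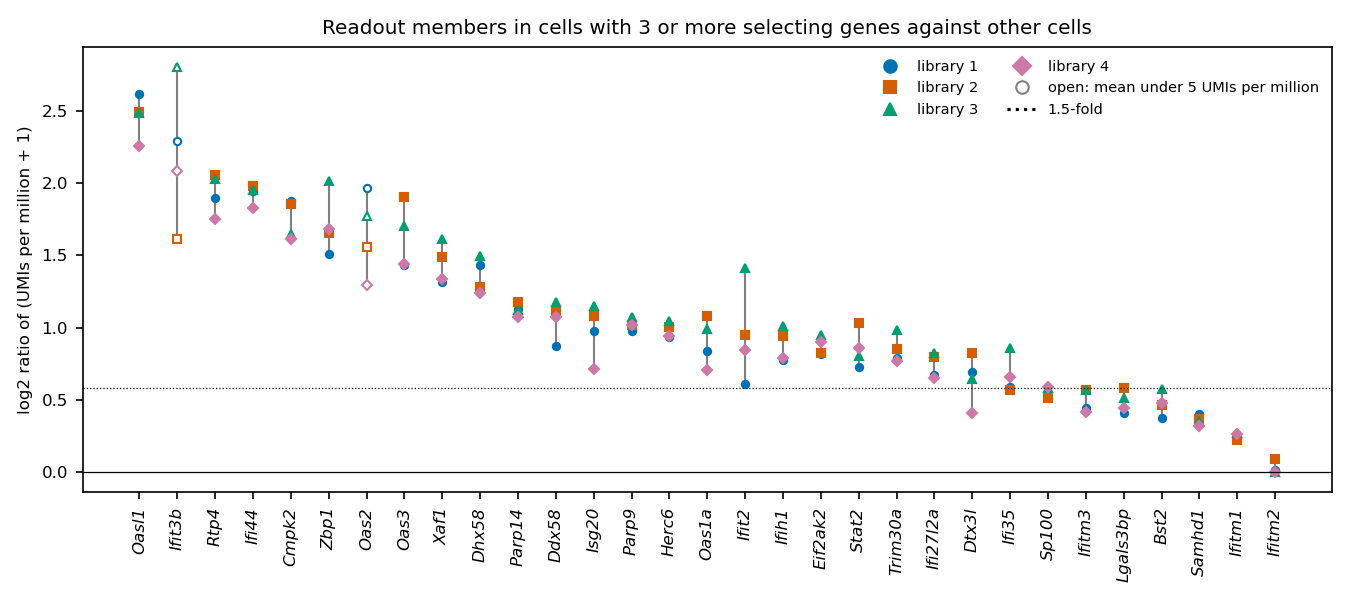
Log2 ratio of each of the 31 members not used for selection, interferon-high against other cells of the same library with the same mix of gates and states, with 1 point per library. Open points mark Ifit3b and Oas2, whose mean was under 5 CPM, the dotted line marks 1.5-fold, and the genes run from Oasl1 (median 2.49) down to Ifitm2 (0.01).

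The promoter matches were set beside this order. Of 23 such members in the promoter table and past the filter, 14 were higher in interferon-high cells, 7 with and 7 without a GAAANNGAAA match, and 9 were not, 3 with and 6 without one. Ifit3b, which carries a pair of matches, missed the filter, at 4.60, 2.42, 7.26 and 3.73 CPM in interferon-high and 0.14, 0.117, 0.183 and 0.115 in other cells. Oasl1, Ifi44 and Cmpk2 were without a match in the 300 bases read, and Ifitm3, whose site is printed above, had a ratio of 0.50. A missing match says only that these letters are absent from this window.

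The other members also differed between cells below the limit of 3 genes. In resting HSC-like, Flt3 and uncommitted cells thinned to 5000 UMIs, the mean number of UMIs of the 27 sparse members not used for selection was 4.13 in library 1 for cells with 0 selecting genes, 5.29 with 1, 6.57 with 2, 8.24 with 3 and 23.2 with 4 or more. In library 2 it was 4.89, 5.89, 7.86, 11.5 and 21.0, in library 3 it was 4.07, 5.38, 6.87, 8.83 and 17.7 and in library 4 it was 4.55, 5.32, 6.65, 10.0 and 16.4. Each step was up in each library, and the top step held only 8 to 22 cells per library. Resting cells with 0 selecting genes made up 60.5 to 65.0% of these cells and held 53.5 to 55.7% of the UMIs of the 27 genes, while cells with 4 or more made up 0.47 to 1.15% and held 1.75 to 4.19%. In cycling cells the top step held 4 to 6 cells per library, with means from 8.5 to 19.5, too few to compare.

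**Figure D5:**
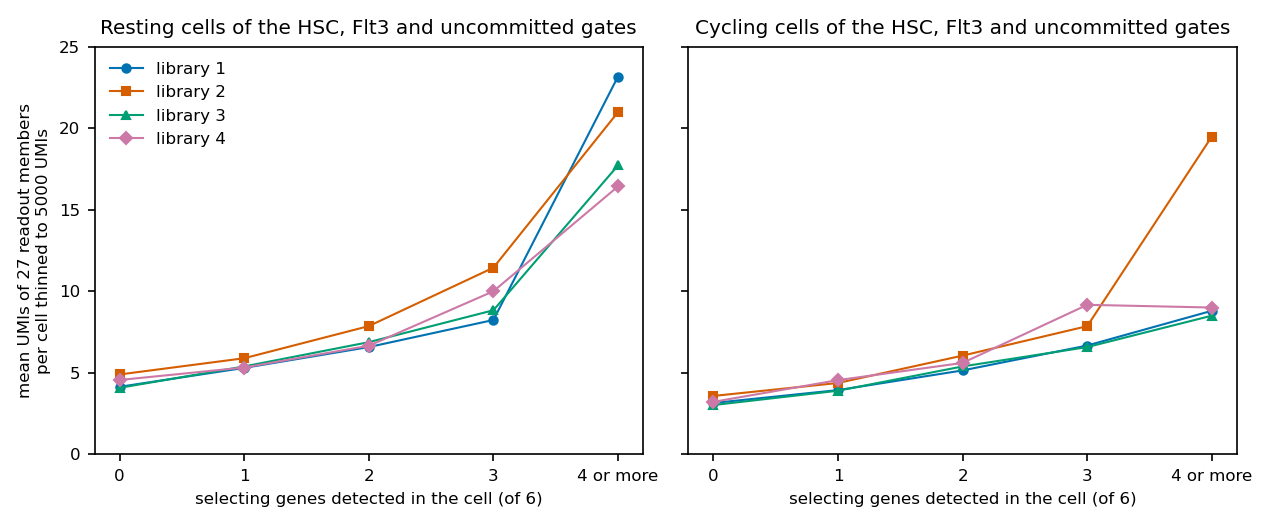
Mean UMIs per cell of the 27 sparse members not used for selection, by the number of selecting genes with a UMI in the same cell (0 to 4 or more), in cells thinned to 5000 UMIs, with 1 line per library and a panel each for resting and cycling cells. In resting cells the lines go from between 4.07 and 4.89 UMIs at 0 selecting genes to between 16.4 and 23.2 at 4 or more, where each library has at most 22 cells.

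Over all kept cells, interferon-high cells held 7.27, 8.40, 8.53 and 10.6% of the UMIs of those 27 genes in libraries 1 to 4. Taking them out lowered the summed level of these 27 genes in resting HSC-like cells from a median of 1043 to 974 CPM. In resting Flt3 cells it fell from 985 to 917 and in resting uncommitted cells from 906 to 863. Without them the median log2 ratio of the members was 0.22 in place of 0.16 between HSC-like and Flt3 cells, 0.28 against uncommitted cells as before, and 0.34 in place of 0.41 against megakaryocyte progenitor-like cells. Between resting and cycling cells it was 0.46 in HSC-like, 0.45 in uncommitted, 0.47 in Flt3, 0.72 in granulocyte progenitor-like and 0.59 in megakaryocyte progenitor-like cells. The counts of members higher at rest were 10, 4, 9, 15 and 7 in the same order, and those of HSC-like against Flt3, uncommitted and megakaryocyte progenitor-like cells were 5, 5 and 3. These counts have no share of all genes beside them. The gaps between states were nearly as large in the cells outside the interferon-high set.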

How the data were processed

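Per the file headers, the authors' matrix of raw UMI counts, which joins 4 libraries, comes from Cell Ranger 6.1.2. The submitters' processing notes name mm10. Kept cells had 500 or more genes and no more than 10% of UMIs from mitochondrial genes, and no doublet caller was run (the 8% deepest cells were left out as an alternative). Total UMIs were 111226947 to 142792456 per library. UMIs were summed per library, gate and state with Python 3.11.15, numpy 2.4.6, scipy 1.17.1 and pandas 2.3.3, with a seed of 1 for thinning. Ratios were log2 of CPM plus 1, over genes at 5 CPM or more, with at least 20 cells per library and side, and the code was checked on simulated counts.

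The planned test of mutant against wild type on summed counts was not run, because no label ties libraries to samples. The members and lists were chosen with earlier results of these data known. Chosen after seeing the data were the gate rule (markers in at least 0.2% of cells; ties left out), the limits of 10 and 20 cycle UMIs and the 100 CPM that defines sparse members. Genes named with values were the 10 highest members, the selecting genes, and the 3 largest and 3 smallest ratios of each comparison, beside those that met the rule of size. Results of 1 pathway gene are not reported here.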

Additional observations from a re-analysis of the deposited data

How the results depend on the processing

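Over 318 alternative values, 258 moved by less than the spread of the 4 libraries (for counts, within 1.5 times), 55 moved further and 5 turned sign. Of 124 list medians 119 kept their sign. Counts of members under the alternatives have no share of all genes beside them. The 5 that turned were resting against cycling as mean UMIs per cell, an alternative chosen after seeing the data: -0.48 (HSC), -0.27 (uncommitted), -0.47 (Flt3), -0.35 (granulocyte) and -0.11 (megakaryocyte), with 0, 1, 0, 1 and 1 members at least 1.5-fold higher at rest. A CPM divides by a total that is larger in cycling cells. With all cycle states together, the members higher in HSC-like than in Flt3 cells were 7 (median 0.36), Flt3 against granulocyte gave 10 (0.46), HSC against megakaryocyte 16 (0.73), and the median against uncommitted cells was 0.38. With resting at 5 cycle UMIs or fewer, an alternative chosen after seeing the data, HSC against uncommitted gave 3, Flt3 against granulocyte 1 and HSC against megakaryocyte 2, and the Flt3 state median was 0.59. A pseudocount of 5 CPM gave 3 for HSC against uncommitted, 1 for Flt3 against granulocyte, and state medians of 0.44 (uncommitted), 0.47 (Flt3), 0.61 (granulocyte) and 0.48 (megakaryocyte). With 1 more marker per gate, Flt3 against granulocyte gave 1 and the HSC states 7, and the summed levels were 859 CPM (granulocyte) and 756 CPM (megakaryocyte). With a filter of 20 CPM, Flt3 against granulocyte gave 1, the uncommitted states 3 (0.44), the granulocyte states 10, and the Flt3 state median was 0.50.

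Without interferon-high cells, also chosen after seeing the data, Flt3 against granulocyte gave 1 (median 0.079), the megakaryocyte states 7, and the uncommitted and Flt3 state medians were 0.45 and 0.47. With 5 CPM required on both sides, Flt3 against granulocyte gave 1 and the granulocyte states 10, and per UMIs that are not immunoglobulin the summed plasma level was 1119 in place of 495 (both added after seeing the data). A mitochondrial limit of 5% gave medians of 0.46 (HSC against megakaryocyte), 0.53 (HSC states) and 0.49 (megakaryocyte states), and a summed megakaryocyte level of 856 CPM. Without the 8% deepest cells the granulocyte states gave 9 (0.59). Leaving out a library moved the megakaryocyte states from 4 to as many as 9, reached without library 1. The variance over mean was 2.20 at 2500 UMIs and 6.09 without thinning. With 2 or more selecting genes 13.2% of cells passed and 11 members counted (0.57), with 4 or more 1.12% (1.47), and after thinning to 5000 UMIs 1.44% (1.37). The cause of the other moves was not tested.

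No paired analysis was possible because the libraries carry no sample labels, which concerns mutant against wild type alone; gates and states were compared within each library. The planned edgeR and DESeq2 fits and replicate block were not run for the same reason, and resting at 0 cycle UMIs left too few cells for a value. Depth limits the genes under 5 CPM, Ifit3, Ifit3b, Oas2 and Oasl1, and the resting megakaryocyte gate (at least 59 cells per library).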
